A study of Mus musculus with 3 samples.

Results

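Muscle stem cell spots were the spots in which quiescent or activated muscle stem cells (MuSCs) supplied at least 0.02 of the transcripts. They were found in spatial RNA sequencing of mouse tibialis anterior, a muscle of the lower leg, after injury by notexin, a snake venom toxin that breaks down myofibers. The data were 3 Visium sections, 1 each at 2, 5 and 7 days post-injury (dpi), all from female mice aged 5 months whose muscle had received notexin. No uninjured section was analysed here. A spot is a small region that can hold parts of several cells, and each spot carried an estimated fraction of its transcripts, theta, for each of 27 cell types. The members were 322 of 2758 spots, and they were set against 1887 comparison spots of the same sections in which both MuSC thetas were below 0.01.

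MuSCs lie between a myofiber and its basal lamina and are the source of new muscle after damage. They rest in a quiescent state in uninjured muscle. After injury they become activated, divide, commit to the muscle lineage as myoblasts and fuse as myocytes into regenerating fibers, while monocytes and macrophages clear debris and fibro/adipogenic progenitors (FAPs) remodel the matrix around them. The marker genes Pax7, Myf5 and Myod1 could not be checked in these spots because gene-level values were not analysed here. The names of the cell types are therefore those of the deconvolution, a method that splits each spot's transcripts among the types of a single-cell reference. The methods describe a reference with fewer types than the 27 deposited, so which version of it gave these thetas is not known.

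With 1 section per time point, time, animal and capture area cannot be told apart, and no test between sections was possible. Spots of 1 section are pieces of 1 tissue and not replicates, so no p-value or standard error was formed over them. Theta chose the members, and all 27 thetas of a spot sum to 1, so the thetas below describe the chosen spots and test nothing. Depth and the mitochondrial and ribosomal protein percentages were not used in the choice. A lower theta can come from fewer cells of a type or from less RNA per cell, which cannot be told apart. Between 568 and 739 barcodes were shared by any pair of sections. Each Visium capture area carries a common set of barcodes, so a shared barcode marks an array position and not a shared cell.

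The section at 2 dpi held most of the MuSC spots. They were 206 of 859 spots at 2 dpi, a share of 24.0% (exact 95% binomial interval 21.2% to 26.98%). At 5 dpi they were 56 of 933 spots, or 6.002% (4.57% to 7.72%), and at 7 dpi 60 of 966 spots, or 6.21% (4.77% to 7.92%). The intervals cover the counting of spots only. The share at 2 dpi lay above both later sections, whose intervals overlapped each other.

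The threshold cut a continuous distribution. The lowest deciding theta inside it was 0.0201, 0.020005 and 0.020039 at 2, 5 and 7 dpi, and the highest outside it was 0.0199, 0.0196 and 0.0198. Between 0.02 and 0.022 lay 29, 9 and 13 members, and between 0.018 and 0.02 lay 40, 15 and 19 spots outside. Few spots were far above it. A theta of at least 0.05 was reached in 29, 4 and 2 spots of the 3 sections in order of time, and quiescent MuSCs reached it in 7 spots, all at 2 dpi.

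Activated MuSCs accounted for most of the members. At 2 dpi, 128 members passed by activated MuSCs only, 48 by quiescent MuSCs only and 30 by both. At 5 dpi these counts were 49, 6 and 1, and at 7 dpi they were 42, 13 and 5. Spots in which both states passed together were most numerous in the section at 2 dpi, where they made up 14.6% of members, against 1.79% at 5 dpi and 8.33% at 7 dpi. That section also had the most spots passing by each state. Of all spots, 78, 7 and 18 passed by quiescent and 158, 50 and 47 by activated MuSCs at 2, 5 and 7 dpi. Whether the overlap exceeded what these counts alone would give was not tested.

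**Figure D1:**
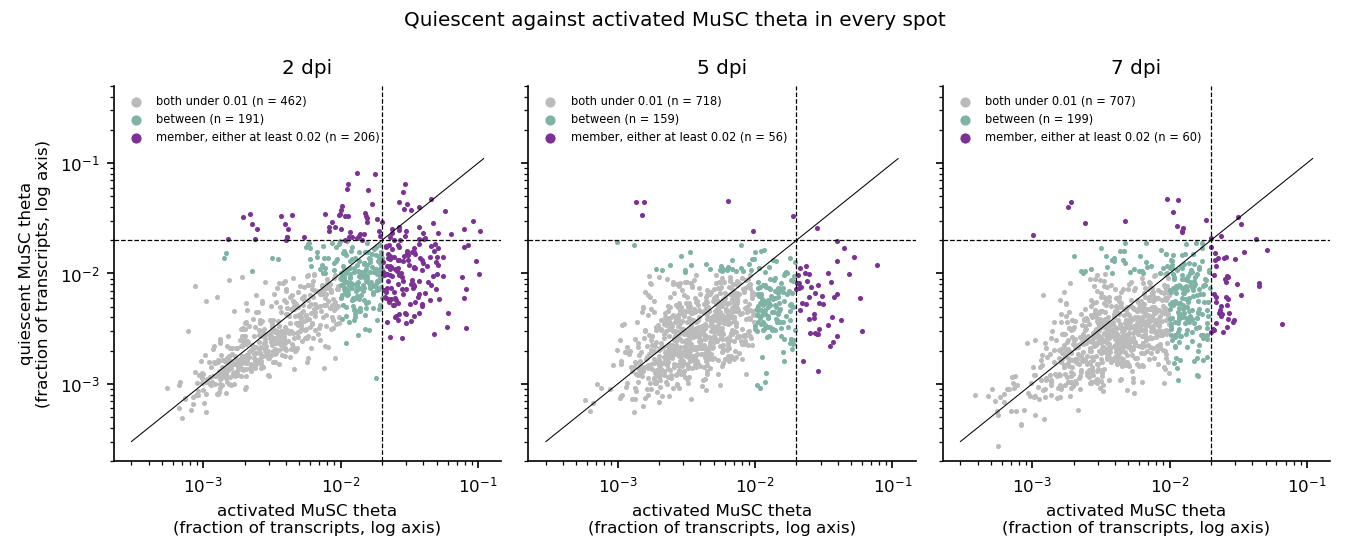
Quiescent against activated MuSC theta (fraction of a spot's transcripts, both log axes) for every spot of the 3 sections. Dashed lines mark 0.02, the diagonal marks equal theta, and colours give members, comparison spots and spots between; the members at 2 dpi spread over both sides of the diagonal, and at 5 dpi 49 of 56 passed by activated MuSCs only.

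In member spots the quiescent theta averaged 0.01796, 0.0105 and 0.0146 (2, 5 and 7 dpi). The activated theta averaged 0.0300, 0.0291 and 0.0236. The ratio of quiescent to activated mean theta was therefore 0.599, 0.359 and 0.621, lowest in the section at 5 dpi. In comparison spots, where both thetas were small, the same ratio was closer to 1, at 0.873, 0.820 and 0.708.

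Counted spot by spot, quiescent theta exceeded activated theta in 58 of 206 members (28.2%) of the 2 dpi section, in 6 of 56 (10.7%) of the 5 dpi section and in 15 of 60 (25%) of the 7 dpi section. Over all spots of a section this share was 30.2%, 29.7% and 26.2%. The members at 5 dpi were the ones that stood furthest below the share of their own section.

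The highest quiescent theta of each section, in order of time, was 0.0816, 0.0451 and 0.0473, and the highest activated theta 0.103, 0.0766 and 0.0655. The spot with the highest quiescent theta at 2 dpi held 8027 UMIs (unique molecular identifiers, each a counted transcript). Its other transcripts were assigned mainly to type IIb myonuclei, the nuclei of fast glycolytic fibers (0.576), then fusing myocytes (0.111) and neutrophils (0.0768). Of the 3 spots highest in activated MuSCs at 2 dpi, patrolling monocytes or M1 macrophages were among the top 3 of the other types in each.

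As a whole, the members were shallower than the comparison spots in every section. Members held medians of 4251.5, 8747 and 7380.5 UMIs in the 2, 5 and 7 dpi sections, against 7910, 12119 and 16823 in comparison spots. The ratios of these medians were 0.537, 0.722 and 0.439. The spread was wide, and the quartiles of the 2 groups overlapped in each section, with an upper quartile of 6215 UMIs in members at 2 dpi against a lower quartile of 4901 in comparison spots. The 6 quiescent-only members at 5 dpi ran the other way, with a median of 14842 UMIs.

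The share of MuSC spots was highest in the shallowest spots. At 2 dpi it was 37.7% of spots under 3000 UMIs, 28.3% between 3000 and 5000, 22.3% between 5000 and 10000 and 8.43% between 10000 and 20000. At 5 dpi the corresponding shares were 18.4%, 11.8%, 5.10% and 3.99%, with 3.61% of spots with at least 20000 UMIs. At 7 dpi they were 25%, 17.02%, 7.36%, 3.47% and 3.83%. In each of the 4 classes under 20000 UMIs the section at 2 dpi had the highest share. Across all spots of a section, Spearman's rho with the UMI count was -0.54, -0.45 and -0.54 for quiescent theta and -0.61, -0.50 and -0.55 for activated theta at 2, 5 and 7 dpi, as a description over spots that share a library. The part of depth in these thetas was not tested.

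**Figure D2:**
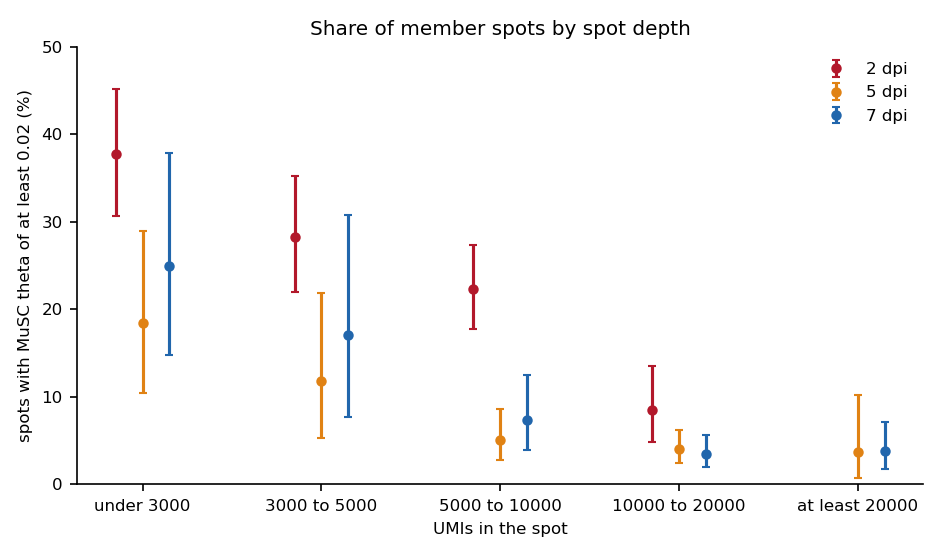
Share of spots with a MuSC theta of at least 0.02 (percent) against the number of UMIs in the spot, by section, with exact 95% binomial intervals for counting only. The 2 spots of the 2 dpi section with at least 20000 UMIs are not drawn; the share at 2 dpi runs from 37.7% under 3000 UMIs to 8.43% from 10000 to 20000.

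Theta was also multiplied by the UMI count of the spot. Mitochondrial and ribosomal protein UMIs are part of that count, but those genes were left out of the reference behind theta. The median mitochondrial percent at 2 dpi was 15.9% in members and 34.5% in comparison spots. The product is therefore not a count of UMIs from a type, and members and comparison spots are not scaled alike. For activated MuSCs its medians were 102, 182 and 150 per member spot in order of time, against 19.4, 37.8 and 53.1 in comparison spots. For quiescent MuSCs they were 41.8, 35.7 and 60.4 in members, against 17.2, 28.9 and 36.9. The product was higher in members for both states, and the ratio of members to comparison spots was smallest for quiescent MuSCs at 5 dpi. These same thetas chose the members, so the higher product adds nothing to the choice.

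Among spots of like depth, 5000 to 10000 UMIs, the 2 dpi section had 68 members of 305 spots, the 5 dpi section 13 of 255 and the 7 dpi section 12 of 163. Their shares were 22.3% (17.7% to 27.4%), 5.10% (2.74% to 8.56%) and 7.36% (3.86% to 12.5%). The ratio of quiescent to activated mean theta was 0.666, 0.155 and 0.477 there. All 13 members at 5 dpi passed by activated MuSCs only. At 7 dpi 10 of 12 did so, while at 2 dpi 22 of 68 passed by quiescent MuSCs only.

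Member spots of this depth also contained more genes. The median number of genes was 2298 in members and 1756 in comparison spots at 2 dpi, 2830 and 1910 at 5 dpi, and 2372 and 2099 at 7 dpi. Members also held more cell types. Over all depths the median number of types with a theta of at least 0.01 was 14.5, 10.5 and 10 in members at 2, 5 and 7 dpi and 3, 5 and 6 in comparison spots. The MuSC types are included in this number. By the rule, every member has a MuSC type counted and no comparison spot has, so part of the difference follows from the choice.

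Even in these spots the MuSCs were a minority. Ordered by theta among the 27 types of a spot, the higher of the quiescent and activated thetas had median ranks of 5, 5 and 6 in members of the 3 sections, against 12, 10 and 11 in comparison spots. It was among the top 3 types in 58, 5 and 6 members. With the myonuclei left out, the MuSCs supplied a median of 8.98%, 7.87% and 7.79% of the remaining transcripts of a member spot, and 5.57%, 4.61% and 2.92% in comparison spots.

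Of the myogenic progenitor transcripts in member spots at 2 dpi, 16.8% were assigned to quiescent MuSCs, 28.1% to activated MuSCs, 18.3% to committed myoblasts and 36.8% to fusing myocytes. At 5 dpi the 4 shares were 4.84%, 13.5%, 9.34% and 72.3%, and at 7 dpi they were 8.97%, 14.5%, 9.86% and 66.7%. Fusing myocytes were the largest of the 4 stages in all 3 sections. Quiescent and activated MuSCs each had their largest share at 2 dpi.

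Committed myoblasts, the stage after activation, had the highest rank correlation with activated MuSCs of the 25 other types over all spots of each section. Their mean thetas in member spots of the 3 sections were 0.0195, 0.0202 and 0.0161, against 0.00461, 0.00633 and 0.00770 in comparison spots, ratios of 4.24, 3.18 and 2.09. The ratios were 4.44, 4.07 and 2.03 at 5000 to 10000 UMIs. With theta rescaled after MuSCs and myonuclei were left out, they were only 1.254, 1.084 and 1.00023 over all depths. Across all spots, activated MuSC and committed myoblast theta had a Spearman's rho of 0.87, 0.65 and 0.53, a description in which both values come from 1 deconvolution. Within 5000 to 10000 UMIs at 5 dpi, Cxcl10+ monocytes (0.6641) and, barely, M1 macrophages (0.6510) were above committed myoblasts (0.6505).

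The overlap of activated or quiescent and committed stages within spots was partial. Spots with a committed myoblast theta of at least 0.02 numbered 113, 60 and 92, of which 67, 19 and 19 were MuSC spots. The shared spots were 32.5%, 33.9% and 31.7% of the MuSC spots and 59.3%, 31.7% and 20.7% of the committed myoblast spots at 2, 5 and 7 dpi. Of all spots, committed myoblast spots were 13.2%, 6.43% and 9.52% and MuSC spots 24.0%, 6.002% and 6.21%. Both thetas come from 1 deconvolution, and the overlap was not tested.

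Fusing myocytes, which join to form new fibers, were higher in members at 2 and 5 dpi and lower at 7 dpi. Their mean theta was 0.0393 in member and 0.0215 in comparison spots at 2 dpi, 0.156 and 0.106 at 5 dpi, and 0.109 and 0.128 at 7 dpi. The ratios were 1.83, 1.48 and 0.851. A fusing myocyte theta of at least 0.02 was present in 62.1%, 100% and 88.3% of the members in order of time, but also in 42.7%, 72.5% and 79.2% of all spots of those sections.

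Both kinds of myonuclei, which carry the transcripts of mature fibers, were lower in member spots. Type IIb myonuclei supplied a mean of 0.481, 0.476 and 0.448 of the transcripts in members and 0.747, 0.629 and 0.594 in comparison spots at 2, 5 and 7 dpi. Type IIx myonuclei supplied 0.0179, 0.0610 and 0.0689 in members and 0.0770, 0.125 and 0.0904 in comparison spots. Because thetas sum to 1, a lower myonuclear theta leaves more for other types.

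Most other cell types were higher in the member spots. Of the 25 types other than the MuSCs, 15 had at least 2 times the mean theta in members of the 2 dpi section, which is 60% of the types. The count was also 15 (60%) for the 5 dpi section and 15 (60%) for the 7 dpi section. Within 5000 to 10000 UMIs these were 15 (60%), 13 (52%) and 6 (24%) types in order of time. With theta rescaled after MuSCs and myonuclei were left out, 2, 1 and 2 of 23 types reached the same ratio. The median ratio over those 23 types was then 0.936, 1.11 and 1.22. The single ratios had a lowest value of 0.343, 0.295 and 0.646 and a highest of 2.93, 2.03 and 2.62 in the 3 sections.

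Committed myoblasts and 7 kinds of immune cell were at least 2 times higher in the members of all 3 sections. The immune types were B cells, T cells, NK cells, neutrophils, M1 macrophages, Cxcl10+ monocytes and inflammatory monocytes. Of all types, only B cells and committed myoblasts were at least 2 times higher in all sections at 5000 to 10000 UMIs as well. For B cells at 7 dpi that ratio rested on 1 of the 12 members, with a B cell theta of 0.0919, and the ratio of medians was 1.10. With the comparison spots weighted to the depth of the members, committed myoblasts, dendritic cells and Cxcl10+ monocytes were the types at least 2 times higher in all sections. After theta was rescaled without MuSCs and myonuclei, neither committed myoblasts nor any of the 7 immune types was 2 times higher in all sections. Among them only M1 macrophages at 2 dpi (2.14) and Cxcl10+ monocytes at 5 dpi (2.03) stayed above 2. B cells at 2 dpi (0.769) and neutrophils at 5 dpi (0.896) fell below 1.

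**Figure D3:**
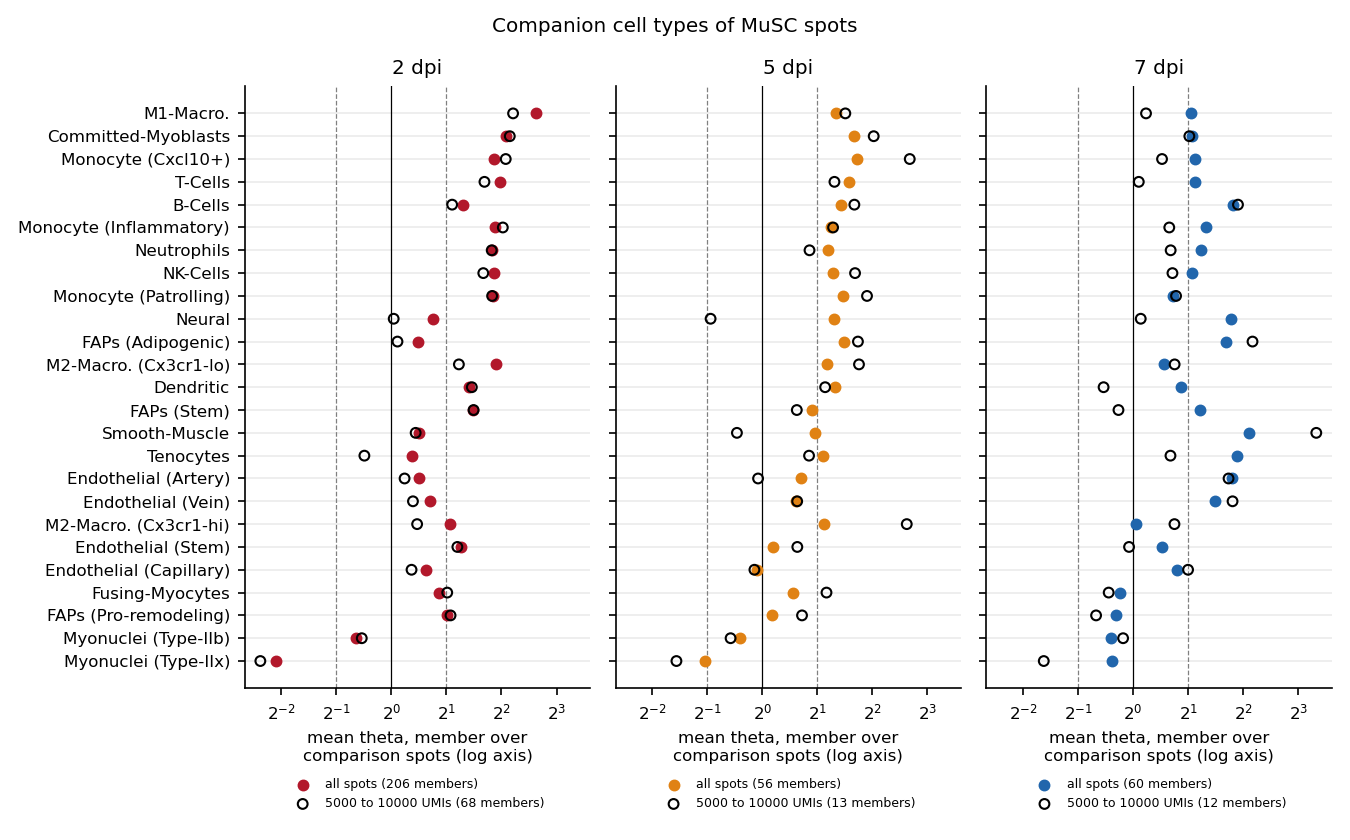
Mean theta in member spots divided by that in comparison spots (log axis) for 25 cell types at 2, 5 and 7 dpi. Filled points use all spots, open circles the spots with 5000 to 10000 UMIs, the solid line marks 1 and dashed lines a 2-fold ratio; both myonuclei types lie below 1 in every panel, and committed myoblasts lie above 2.

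Monocytes and macrophages, which enter injured muscle early, were the leading companions at 2 dpi. Patrolling monocytes had the largest difference, with a mean theta of 0.122 in members and 0.0340 in comparison spots (ratio 3.6). M1 macrophages, a proinflammatory state, had the largest ratio of means, 6.195, from 0.0296 and 0.00477. By medians the largest ratio was that of patrolling monocytes, 37.2, from 0.103 and 0.00276, with M1 macrophages at 8.89. By means, Cxcl10+ monocytes had a ratio of 3.64, inflammatory monocytes 3.71, Cx3cr1-lo M2 macrophages 3.75 and T cells 3.93. In spots of 5000 to 10000 UMIs the ratios of means of patrolling monocytes and M1 macrophages were 3.55 and 4.63. All monocytes and macrophages together supplied 23.6% of the transcripts of members and 6.44% of those of comparison spots. They supplied 24.2% in the 191 spots between the thresholds, so the level in members was also that of spots with less MuSC signal.

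Patrolling monocytes were also the type with the highest theta, other than MuSCs and myonuclei, in 125 of 206 members at 2 dpi (60.7%). The same was true of 57 of 462 comparison spots (12.3%) and of 113 of the 191 spots between the thresholds (59.2%). The mean theta of patrolling monocytes in the spots between was 0.136. Fusing myocytes led in 29 members (14.1%), in 75 comparison spots (16.2%) and in 25 of the spots between (13.1%). No other type led in more than 11 members.

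At 5 dpi fusing myocytes led in 51 of 56 members (91.1%), and in 491 of 718 comparison spots (68.4%). Outside the myogenic types, the largest ratios were those of Cxcl10+ monocytes at 3.32, T cells at 2.96, adipogenic FAPs at 2.80, patrolling monocytes at 2.77 and B cells at 2.70. By difference, adipogenic FAPs came first outside the myogenic types, with a mean theta of 0.0276 in members and 0.00986 in comparison spots. Cx3cr1-hi M2 macrophages followed, a state linked to repair, at 0.0267 and 0.0123. At 5000 to 10000 UMIs, with 13 members, the ratio of Cxcl10+ monocytes was 6.40 and that of Cx3cr1-hi M2 macrophages 6.17.

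Pro-remodeling FAPs, a stromal state of the injured muscle, were common in members and comparison spots at 5 dpi. Their mean theta was 0.0362 in members and 0.0319 in comparison spots, a ratio of 1.13. This ratio of means was 0.942 without the 3 members highest in the type, 1.65 at 5000 to 10000 UMIs and 1.43 with comparison spots weighted by depth. The medians were further apart, at 0.0288 and 0.0152, a ratio of 1.89, which was 3.45 at 5000 to 10000 UMIs. A theta of at least 0.01 was present in 83.9% of members and 56.8% of comparison spots. Capillary endothelial cells had mean thetas of 0.00437 and 0.00468.

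Vessel, tendon and nerve types led the companions at 7 dpi. The largest ratios were those of smooth muscle at 4.29, tenocytes at 3.69, B cells at 3.52, artery endothelial cells at 3.48 and neural cells at 3.44. Adipogenic FAPs had the largest difference, with a mean theta of 0.0372 in members and 0.0115 in comparison spots. The smooth muscle, tendon, artery and neural types belong to structures found between and around the myofibers. Tenocytes, smooth muscle and neural cells together supplied 8.28% of the transcripts of members and 2.19% of those of comparison spots.

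Some of these values rested on few spots. Without the 3 members highest in smooth muscle its ratio was 2.15, and for tenocytes and neural cells without their 3 highest members it was 2.43 and 1.52 (settings added after the data were seen). The same step gave 2.19 for B cells, 2.26 for artery endothelial cells and 2.07 for adipogenic FAPs. With the comparison spots weighted to the depth of the members, the ratio of neural cells was 0.438, in the other direction, and that of smooth muscle 4.16. Among the 12 members of 5000 to 10000 UMIs, smooth muscle was at 10.0, tenocytes at 1.60 and neural cells at 1.10. The ratios of medians there were 1.28, 1.51 and 1.93 in the same order. Smooth muscle led in 2 of those 12 members and in 1 of 95 comparison spots of that depth.

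Fusing myocytes led in 34 of 60 members at 7 dpi (56.7%) and in 481 of 707 comparison spots (68.0%). Adipogenic FAPs and tenocytes led in 5 members (8.33%) each, against 7.50% and 0.424% of comparison spots. Pro-remodeling FAPs, neural cells and smooth muscle led in 4 members (6.67%) each, against 11.5%, 1.70% and 1.27% of comparison spots. Of the 5 members in which both MuSC states passed, tenocytes led in 3.

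Members chosen by the quiescent state and by the activated state had different companions at 2 dpi. In the 48 members with quiescent MuSCs only, the mean theta of patrolling monocytes was 0.0722, with a median of 0.0149. In the 128 members with activated MuSCs only, the mean was 0.145 and the median 0.133. The interquartile ranges overlapped, from 0.00585 to 0.128 in the first and from 0.0548 to 0.206 in the second. Fusing myocytes ran the other way, with means of 0.0579 in quiescent-only and 0.0297 in activated-only members.

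Patrolling monocytes led in 94 of the 128 activated-only members and fusing myocytes in 6. In the 48 quiescent-only members fusing myocytes led in 19 and patrolling monocytes in 14. Among spots with 5000 to 10000 UMIs, patrolling monocytes led in 26 of 37 activated-only members and in 4 of 22 quiescent-only members, while fusing myocytes led in 2 and 11. Monocytes and macrophages together supplied 27.1% of the transcripts in activated-only and 15.6% in quiescent-only members over all depths.

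**Figure D4:**
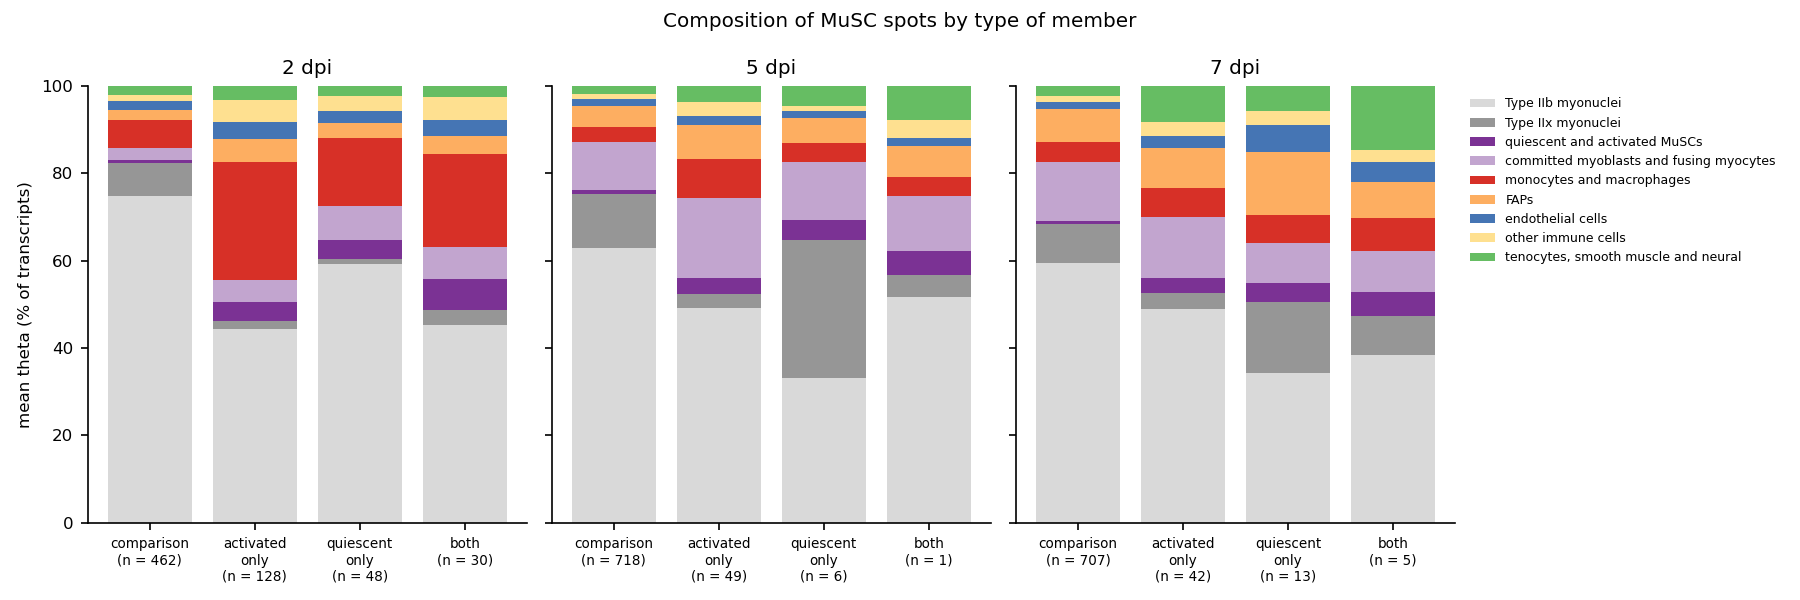
Mean theta by family of cell types, as a percent of transcripts stacked to 100, in comparison spots and in members that passed by activated MuSCs only, quiescent MuSCs only or both. Monocytes and macrophages supply 27.1% in activated-only members at 2 dpi, and type IIx myonuclei 31.7% in the 6 quiescent-only members at 5 dpi; the bar for both at 5 dpi is 1 spot.

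The quiescent-only members at 5 and 7 dpi stood out by their type IIx myonuclei. The mean type IIx theta was 0.317 in the 6 quiescent-only members at 5 dpi and 0.0298 in the 49 activated-only members. At 7 dpi it was 0.165 in 13 and 0.0366 in 42 members. At 2 dpi the values were 0.0115 and 0.0166. Comparison spots of the 3 sections were at 0.0770, 0.125 and 0.0904.

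Spot by spot, the 6 quiescent-only members at 5 dpi had type IIx thetas of 0.196, 0.619, 0.610, 0.440, 0.00788 and 0.0289, in order of falling quiescent theta. Their UMI counts were 15036, 14648, 22673, 25702, 3209 and 10109. The 4 spots highest in quiescent MuSCs were thus deep spots with much type IIx signal, and the other 2 were not. Type IIx exceeded type IIb in 3 of these 6 members, in none of the 49 activated-only members and in 18 of 718 comparison spots (2.51%).

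At 7 dpi the 13 quiescent-only members had type IIx thetas from 0.0121 to 0.588, with a median of 0.0686. Type IIx exceeded type IIb in 3 of them, in none of the 42 activated-only members and in 18 of 707 comparison spots (2.55%). Those 13 spots ranged from 1133 to 35332 UMIs. Across all spots, quiescent theta and type IIx theta had a Spearman's rho of -0.13, 0.21 and 0.26 in the 3 sections, and at 5000 to 10000 UMIs -0.23, 0.27 and 0.03.

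Mitochondrial transcripts, which are abundant in muscle fibers, were scarcer in MuSC spots. Their medians were 15.9%, 11.52% and 14.2% of UMIs in members of the 2, 5 and 7 dpi sections, against 34.5%, 27.02% and 17.5% in comparison spots. At like depth, 5000 to 10000 UMIs, the medians were 18.1%, 11.7% and 12.3% in members and 34.5%, 26.2% and 18.0% in comparison spots. Over all depths the interquartile ranges did not overlap at 2 and 5 dpi, and did at 7 dpi, where members ran from 10.4% to 18.96% and comparison spots from 12.4% to 27.3%.

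Ribosomal protein transcripts, which serve protein synthesis, were more abundant in MuSC spots. The medians were 8.36%, 10.6% and 9.23% of UMIs in members and 4.22%, 5.86% and 7.66% in comparison spots. Within 5000 to 10000 UMIs they were 8.35%, 10.7% and 9.13% against 4.38%, 5.94% and 7.04%. As with the mitochondrial percent, the gap between the groups was smallest at 7 dpi. Myonuclear theta moved with both percentages between these groups, and its part in them was not tested.

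The quiescent-only and activated-only members differed here too. At 2 dpi the median mitochondrial percent was 26.3% in quiescent-only and 13.3% in activated-only members, and 31.3% and 14.6% at 5000 to 10000 UMIs. At 5 dpi it was 23.7% and 11.1%, and at 7 dpi 16.0% and 13.1%. Ribosomal protein transcripts were at 6.57% and 8.67% at 2 dpi, 6.97% and 10.7% at 5 dpi, and 7.95% and 9.59% at 7 dpi. In every section the quiescent-only members lay between the activated-only members and the comparison spots on both measures.

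**Figure D5:**
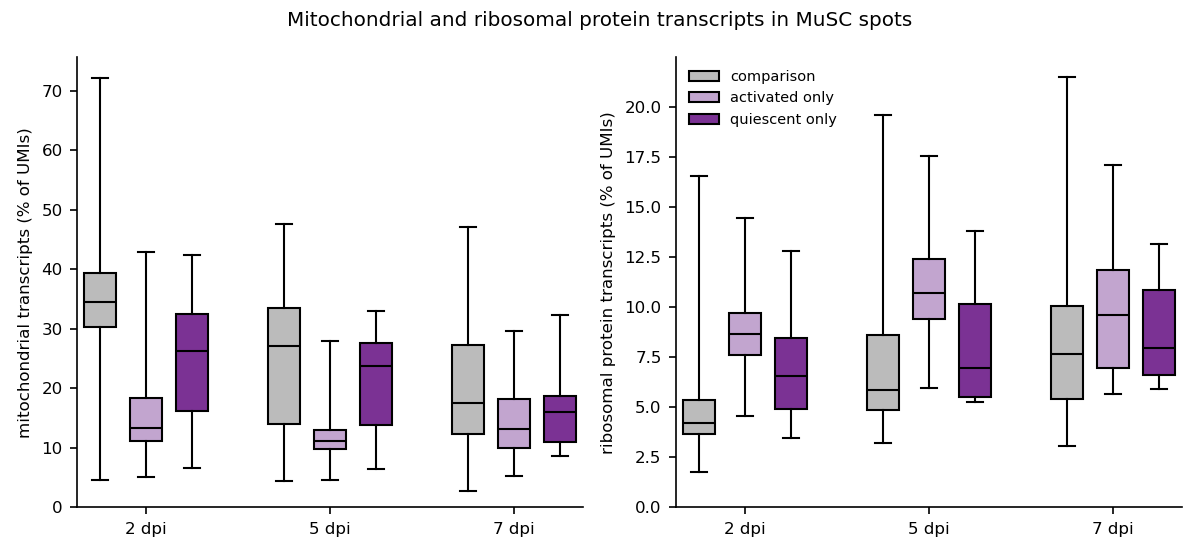
Mitochondrial (left) and ribosomal protein (right) transcripts as a percent of UMIs in comparison, activated-only and quiescent-only spots of each section. Boxes give the quartiles and median and whiskers the lowest and highest spot; activated-only members have the lowest mitochondrial median in each section, 13.3% at 2 dpi, 11.1% at 5 dpi and 13.1% at 7 dpi.

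Hemoglobin transcripts, a sign of blood, were few in MuSC spots. The median was 0 in members and in comparison spots at 2 dpi, where 154 of 206 members (74.8%) and 322 of 462 comparison spots (69.7%) held no hemoglobin UMI. It was 0.0370% in members and 0.0282% in comparison spots at 5 dpi, and 0.0507% and 0.0310% at 7 dpi. The ratios of these medians were 0.966 and 1.017 at 5000 to 10000 UMIs.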

How the data were processed

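Values per spot were read for 3 sections, grouped by the treatment in the labels. Per the submitters' processing notes and the methods, the authors aligned reads to mm10 with Space Ranger 1.0, picked spots over tissue by hand and used Seurat 3.2.1. The authors deposited UMI and gene counts per spot, unnormalized. The deposited percent values give mitochondrial, ribosomal protein and hemoglobin genes among the UMIs. The deposited theta values are fractions that the authors estimated with BayesPrism from a single-cell reference without mitochondrial and ribosomal protein genes. Theta is a fraction of transcripts and not of cells. The shallowest members held 1003, 1088 and 1059 UMIs, so a theta of 0.02 there stands for few molecules.

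Members had either MuSC theta of at least 0.02 and comparison spots both below 0.01. The 191, 159 and 199 spots between at 2, 5 and 7 dpi were left out of ratios. Means weight spots equally. Shares have exact Clopper-Pearson intervals at 95%, and no test was run. Named with values were the myogenic and myonuclear types and, in each section, the 5 other types with the largest ratio (member mean of at least 0.005) and the 5 with the largest difference, and other types of their families. Members and lists were chosen with earlier results of these data known. The alternatives planned were 5000 to 10000 UMIs, at least 3000 UMIs for companions, a theta of 0.05, each MuSC type alone, medians or means, and rescaled theta. Added after seeing the data were comparison spots weighted to the 5 UMI classes of the members, at least 3000 UMIs for shares and ratios, and members split by MuSC state. The ratios without the 3 highest members of a type were also added. The code was tested on simulated data. Python 3.11.15, numpy 2.4.6, pandas 2.3.3, scipy 1.17.1 and matplotlib 3.10.9 were used. The image alignment files were not used.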

Additional observations from a re-analysis of the deposited data

Results flagged for a closer look

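By mean theta, 3 cell types were higher in MuSC spots of one section and lower in those of another. These differences between sections were not tested, since each time point had 1 section. Fusing myocytes had member over comparison mean theta ratios of 1.83, 1.48 and 0.851 in the 2, 5 and 7 dpi sections. By medians these were 5.04, 2.58 and 0.827. Pro-remodeling FAPs had ratios of 2.02, 1.13 and 0.809 by means and 3.73, 1.89 and 0.880 by medians. Capillary endothelial cells had ratios of 1.55, 0.933 and 1.73 by means. The ratios of their medians were 1.55, 1.19 and 1.26, so their lower value at 5 dpi held for means only.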

How the results depend on the processing

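The lower depth of members held in every section for means and against all other spots, with ratios of 0.606 at 7 dpi for means and 0.694 at 2 dpi at a theta of at least 0.05. At 5 dpi, members at 5000 to 10000 UMIs had a median of 8754 UMIs against 7787. At a theta of at least 0.05 the member share was 3.38%, 0.429% and 0.207% at 2, 5 and 7 dpi, and other values were not formed at 5 and 7 dpi, which had under 5 members. By quiescent theta alone it was 9.08%, 0.750% and 1.86%, by activated theta alone 18.4% at 2 dpi, and with at least 3000 UMIs 20.3% at 2 dpi. The quiescent over activated ratio was 0.155 at 5 dpi and 0.477 at 7 dpi at 5000 to 10000 UMIs, 0.256 and 0.399 for medians, and 0.629 at 5 dpi over all spots. The count of types at least 2 times higher was 2, 1 and 2 without MuSCs and myonuclei. At 7 dpi it was 6 at 5000 to 10000 UMIs, 9 with at least 3000 UMIs and 9 with weighted comparison spots. The hemoglobin ratio at 5000 to 10000 UMIs was 0.966 at 5 dpi and 1.017 at 7 dpi. Directions turned at that depth for tenocytes at 2 dpi (0.712), for artery endothelial (0.948), neural (0.522) and smooth muscle (0.727) at 5 dpi, and for dendritic cells (0.689), stem endothelial cells (0.950) and stem FAPs (0.831) at 7 dpi. With weighted comparison spots they turned for pro-remodeling FAPs (1.024) and neural (0.438) at 7 dpi. Without the 3 members highest in the type they turned for pro-remodeling FAPs at 5 dpi (0.942) and Cx3cr1-hi M2 macrophages at 7 dpi (0.751). No other of the 25 types turned under these 3 settings. The causes were not tested. No paired analysis was possible because each time point had 1 section. Only 13 and 12 members lay at 5000 to 10000 UMIs at 5 and 7 dpi, which limits those ratios.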
